A study of Mus musculus with 4 samples.

Results

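The 10 genes that mark eosinophils, basophils and mast cells were followed among 24706 genes in each library of RNA-seq of mouse myeloid cells. Their rows were found by gene symbol: the eosinophil genes Prg2, Epx, Siglecf, Il5ra and Ccr3, and the basophil and mast cell genes Prss34, Mcpt8, Cpa3, Ms4a2 and Fcer1a. The series holds 4 libraries, 2 labelled wt and 2 labelled cko. The control mice carried floxed Pdcd1 alleles (PD-1f/f), although the methods name them wild-type, and the cko mice were PD-1f/f; LysM-Cre, where myeloid cells make Cre, which should remove the exon of Pdcd1 (the PD-1 gene) that lies between the loxP sites. The results describe CD11b+ cells sorted from the liver at P3, whereas the methods describe RNA of the liver at P2 and name no sort for it. The labels give no age or sex and do not say whether animals were pooled. The question of the comparison was how loss of PD-1 in myeloid cells alters their gene expression.

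Eosinophils, basophils and mast cells are granulocytes of allergy and of defence against parasites, and all of them form from GATA-factor-expressing progenitors in blood-forming tissue such as the liver of newborn mice. Their identity rests on granule proteins, which are made while the granules form, and on receptors that let the cells answer IgE, interleukin-5 or chemokines. As a rule, transcripts of eosinophil granule proteins are most abundant in immature eosinophils.

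The libraries held between 17691505 and 22212407 counted reads, worked out from the FPKM values (a read count divided by the length of the gene and the total of its library). Both cko libraries lay below both wt libraries for Pdcd1, which had 28.5 and 34.7 FPKM in wt replicates 1 and 2 and 17.1 and 21.4 FPKM in cko replicates 1 and 2 (log2 fold change -0.69, limma adjusted p = 0.218). Lyz2, whose locus carries Cre in LysM-Cre mice, had 31306 and 32147 FPKM in wt and 10422 and 8127 FPKM in cko (log2 fold change -1.79, limma adjusted p = 0.183). The label of myeloid cells was matched by the neutrophil markers, all 13 of which were tested and whose FPKM summed to 161316 and 137122 in wt and to 110672 and 91845 in cko. Monocyte and macrophage markers summed to 649 to 850 FPKM. Erythroid markers (11 listed) summed to 3787 and 2376 FPKM in wt and 1446 and 1548 in cko, hepatocyte markers to 63.2 to 149 FPKM, B cell markers to 34.7 to 69.5 FPKM and T and NK cell markers to 16.4 to 27.0 FPKM. In sex-linked transcripts 1 library stood apart: wt replicate 2 had 24.9 FPKM of the Y-linked Ddx3y and 0.0119 FPKM of Xist, where the other libraries had at most 0.00866 FPKM of Ddx3y and at least 4.91 FPKM of Xist. The wt libraries thus differ in these transcripts, and no other library shares the Y-linked ones. In bulk RNA, fewer cells of a type and less RNA per cell cannot be told apart.

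Prss34, Cpa3, Mcpt8 and Ms4a2 were each above their mean in wt replicate 1 and cko replicate 2 and below it in the other libraries. Ms4a2 was highest in cko replicate 2, the others in wt replicate 1. The promoters of these 4 genes, chosen after their values were seen, are shown first. Each sequence runs 5′ to 3′ from 250 bases before to 50 bases after the gene start of RefSeq (GRCm38.p6), and capitals mark matches to the GATA-type motifs AGATAA, with TGATAA, then AGATAG, with TGATAG, searched on both strands with overlaps allowed. Prss34 (chr17:25298144-25298443, plus strand) has 1 match with its first base at -31 from the start, and Cpa3 (chr3:20242132-20242431, minus strand) has 1 at -46. Ms4a2 (chr19:11623670-11623969, minus strand) has 3, at -224, -37 and -11, and Mcpt8 (chr14:56085148-56085447, minus strand) has 0 in this window.
Prss34: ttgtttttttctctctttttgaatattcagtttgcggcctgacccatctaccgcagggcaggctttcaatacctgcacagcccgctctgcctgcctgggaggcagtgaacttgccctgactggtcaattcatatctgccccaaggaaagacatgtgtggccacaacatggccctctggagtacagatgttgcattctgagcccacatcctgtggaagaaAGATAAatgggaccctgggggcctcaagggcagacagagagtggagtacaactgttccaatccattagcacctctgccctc
Cpa3: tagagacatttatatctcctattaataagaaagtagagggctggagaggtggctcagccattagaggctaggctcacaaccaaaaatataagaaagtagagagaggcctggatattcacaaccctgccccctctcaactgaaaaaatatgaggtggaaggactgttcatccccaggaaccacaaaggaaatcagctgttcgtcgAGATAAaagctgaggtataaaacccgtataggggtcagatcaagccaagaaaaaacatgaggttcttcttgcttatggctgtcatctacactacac
Ms4a2: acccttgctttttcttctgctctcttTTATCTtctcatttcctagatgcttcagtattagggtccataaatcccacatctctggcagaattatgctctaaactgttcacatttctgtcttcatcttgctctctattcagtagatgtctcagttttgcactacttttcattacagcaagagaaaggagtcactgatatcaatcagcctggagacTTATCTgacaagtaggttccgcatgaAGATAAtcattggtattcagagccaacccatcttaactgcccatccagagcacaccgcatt
Mcpt8: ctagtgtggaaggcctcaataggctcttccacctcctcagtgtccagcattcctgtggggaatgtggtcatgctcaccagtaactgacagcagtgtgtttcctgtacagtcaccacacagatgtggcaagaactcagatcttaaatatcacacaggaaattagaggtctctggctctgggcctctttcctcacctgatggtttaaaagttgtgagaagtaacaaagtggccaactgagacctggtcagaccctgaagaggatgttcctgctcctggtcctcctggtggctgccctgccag

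Of the 9 genes with a promoter to search (all but Prg2), 7 held at least 1 match, and 29.8% of all 32851 promoters of this length did. Besides the 3 shown above these were Siglecf (2 matches), Ccr3 (2), Fcer1a (1) and Il5ra (1). Epx, like Mcpt8, had 0 matches in its window. Genes with a match were found among the most and the least expressed of these 9, from Prss34 down to Ccr3, and a match describes letters only, not binding.

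**Figure D1:**
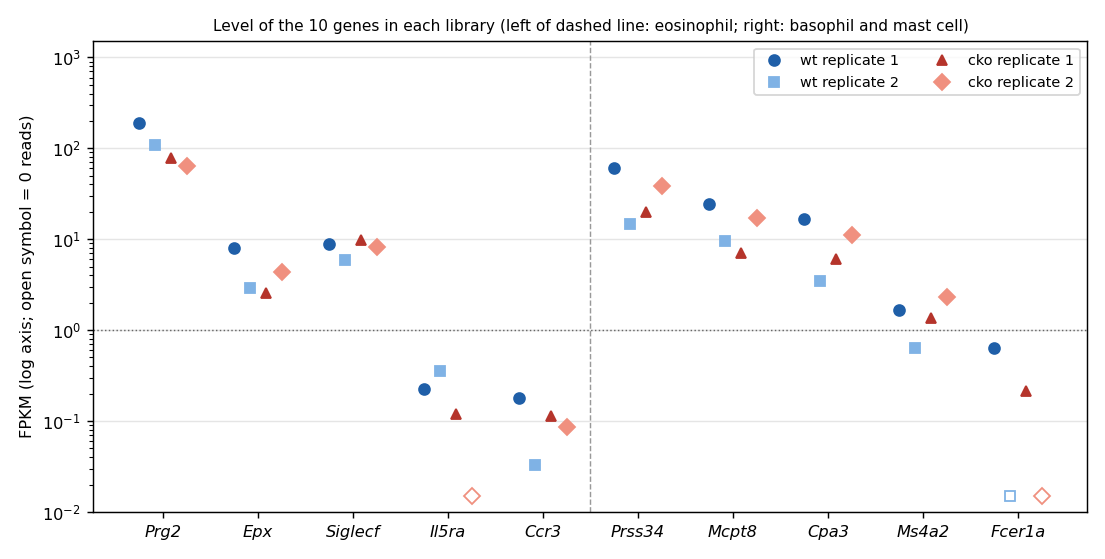
FPKM of each of the 10 genes (log axis) in the 4 libraries, 1 symbol per library, with open symbols at the lower edge for 0 reads and a dotted line at 1 FPKM. Prg2 lay between 64.6 and 191 FPKM in every library, while Il5ra, Ccr3 and Fcer1a stayed below 1 FPKM in every library.

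FPKM values are scaled by length and can be compared between genes. By their mean over the 4 libraries, Prg2 came first (111 FPKM, rank 412 of the 24706 genes), followed by Prss34 (33.5), Mcpt8 (14.5), Cpa3 (9.40), Siglecf (8.22), Epx (4.45) and Ms4a2 (1.496 FPKM). Fcer1a (0.211), Il5ra (0.176) and Ccr3 (0.103 FPKM) closed the order. Prg2 was above Prss34 in every library, Prss34 above Mcpt8 and Mcpt8 above Cpa3, although the ranges of these last pairs overlapped between libraries. Cpa3 and Siglecf changed places between libraries, as did Fcer1a, Il5ra and Ccr3 among themselves, so their order does not exceed their spread.

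Groups were compared with limma on log2(FPKM + 1) over the 10779 genes that averaged 1 FPKM or more, 7 of the 10 among them. None of these 7 passed |log2FC| of at least 1 with an adjusted p under 0.05, the threshold of the methods, as was the case for all genes tested (0% called). By |log2FC| above 1 and an unadjusted p under 0.01, the threshold of the results section, 0 of the 7 passed, where 2.29% of all tested genes did (1.88% higher and 0.408% lower in cko). Only Prg2, 1 of the 7, had an unadjusted p under 0.05, which 16.4% of all tested genes had. Of the 7, 4 had lower and 3 had higher fitted values in cko, with a median log2 fold change of -0.10 beside 0.09 over all tested genes. Over all 10 genes, both cko libraries lay below both wt libraries for 2 (12.6% of all genes) and above both for 0 (24.5% of all genes), and the groups overlapped for 8. Permuting 2 against 2 libraries exactly gives a two-sided p of 0.33 at the lowest, so no single gene could pass 0.05 that way.

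Prg2 encodes major basic protein, the cationic core protein of the eosinophil granule, and is also found in basophils. The gene lies on chromosome 2 (84980461 to 84983632, plus strand, GRCm38). In wt replicate 1 it had 190.5 FPKM (3546 reads) and wt replicate 2 had 110.1 FPKM (1736 reads), against 77.6 FPKM (1218 reads) in cko replicate 1 and 64.6 FPKM (958 reads) in cko replicate 2. Both cko libraries were below both wt libraries, and wt replicate 1 was the highest by a wide margin. The group means were 150.3 ± 56.9 FPKM in wt and 71.1 ± 9.14 FPKM in cko (SD, n = 2), a ratio of 2.11. The log2 fold change was -1.02 (SE 0.28, 95% interval -1.72 to -0.33, unadjusted p = 0.0120, limma adjusted p = 0.220). It missed the second threshold at the p-value alone, and passed it after median-of-ratios scaling between libraries (-1.14, limma adjusted p = 0.222) and by voom on recovered reads (-1.04, limma adjusted p = 0.198). The size rested in part on single libraries: it was -0.63 without wt replicate 1 and -1.42 without wt replicate 2, the latter past the second threshold (limma adjusted p = 0.323). The summed neutrophil markers, carried by a few very abundant genes, had the same order of libraries as Prg2. Singly, only S100a8, S100a9 and Camp had that order, and 3 of the 13 were highest in wt replicate 1. Of the 13, 9 had negative fold changes and 4 (Mpo, Elane, Prtn3 and Ctsg) positive ones. Among them 2 passed the second threshold with lower values, as 0.408% of all tested genes did. The summed erythroid markers were also highest in wt replicate 1, and 3 of 11 passed it. Their part in the Prg2 values was not tested.

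Prg3, a homologue of Prg2 whose start lies 7.75 kb away, had 10.4 and 2.80 FPKM in wt and 2.36 and 2.98 FPKM in cko. It was thus high in wt replicate 1 and similar in the other libraries (log2 fold change -0.85, SE 0.51, limma adjusted p = 0.445). The other tested genes within 100 kb of Prg2, Slc43a3, Ssrp1 and Tnks1bp1, had log2 fold changes of 0.18, -0.16 and -0.22.

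Epx encodes eosinophil peroxidase, the haem enzyme of the same granule, on chromosome 11 (87864000 to 87875536, minus strand, GRCm38). It had 8.03 and 2.91 FPKM in wt (488 and 150 reads) and 2.53 and 4.32 FPKM in cko (130 and 209 reads). The groups overlapped, with wt replicate 1 above both cko libraries and wt replicate 2 between them. Its log2 fold change was -0.46 (SE 0.44, 95% interval -1.55 to 0.64, limma adjusted p = 0.628), and without wt replicate 1 it turned to 0.15. Mpo, the myeloperoxidase gene of neutrophils and monocytes whose start lies 82.0 kb from that of Epx, had 254 to 384 FPKM and a log2 fold change of 0.30. Prg2 exceeded Epx by 14.97 to 37.8 times in the 4 libraries, so these granule genes did not keep a fixed proportion.

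Siglecf, an inhibitory lectin of eosinophils that some tissue macrophages also carry, was the most even of the tested genes. It had 8.78 and 5.98 FPKM in wt (544 and 314 reads) and 9.91 and 8.23 FPKM in cko (518 and 406 reads). The highest library exceeded the lowest by 1.66 times, and wt replicate 1 lay between the cko libraries. The log2 fold change was 0.28 (SE 0.22, 95% interval -0.28 to 0.84, limma adjusted p = 0.553). It was 0.47 with erythroid and hepatocyte markers removed, 0.52 without wt replicate 1 and 0.04 without wt replicate 2. Among 7 Siglec family genes, Siglecf included, 4 were tested and 0 passed either threshold, with a median log2 fold change of 0.17. Siglece, with 117.9 and 76.5 FPKM in wt and 119 and 107 FPKM in cko, and Cd33, with 52.6 to 63.8 FPKM, were both more abundant than Siglecf in every library.

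Further eosinophil genes had mostly negative fold changes. Of 8 listed, 6 were tested, 0 passed either threshold and 1, Ear2, had an unadjusted p under 0.05 with lower values in cko (4.95% of all tested genes). Their median log2 fold change was -0.50, with 5 below 0 and 1 above. Ear2, an eosinophil-associated ribonuclease, had 19.3 and 16.2 FPKM in wt and 11.4 and 9.67 FPKM in cko (log2 fold change -0.70, SE 0.18, unadjusted p = 0.00851, limma adjusted p = 0.214). Alox15, a lipoxygenase of eosinophils and macrophages, had 2.66 and 2.06 FPKM in wt and 1.94 and 1.47 FPKM in cko (log2 fold change -0.31). Both genes had cko libraries below both wt libraries, as had 12.6% of all genes and 18% of tested genes. Ear10 had 1 read in wt replicate 1 and in each cko library, and 0 in wt replicate 2. Its cko libraries lay above both wt libraries (24.5% of all genes), but above wt replicate 1 only through the larger read total of that library. Ear1 and Ear6 were highest in wt replicate 1, at 3.95 and 1.91 FPKM, and at most 1.24 FPKM elsewhere. The Ear genes are near-identical copies, so that reads may have been assigned between them or discarded. Adora3, an adenosine receptor gene, had a log2 fold change of 0.32.

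**Figure D2:**
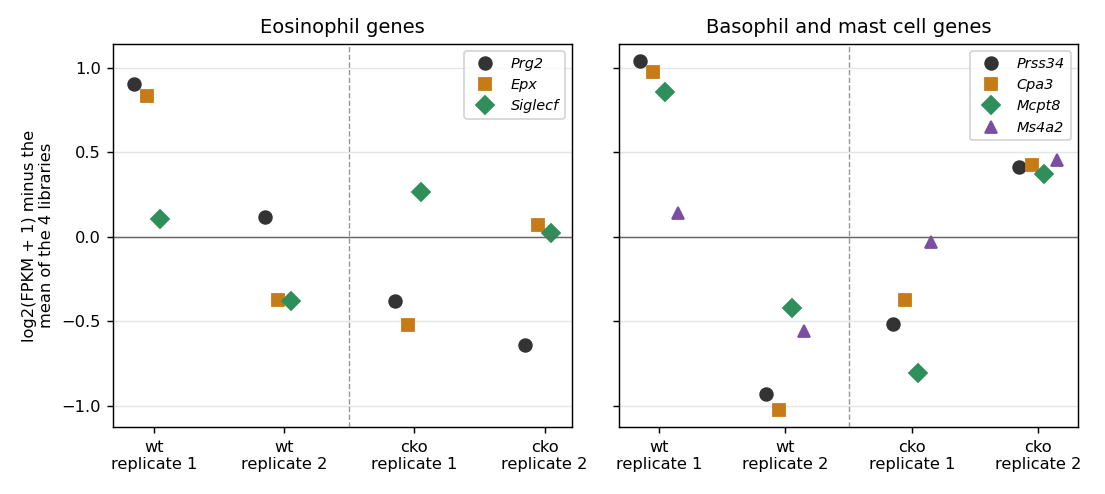
Values of 7 genes as log2(FPKM + 1) minus the mean of the gene over the 4 libraries, by library, for eosinophil genes (left) and basophil and mast cell genes (right). Prss34, Cpa3, Mcpt8, Ms4a2 and Epx were above their mean in wt replicate 1 and cko replicate 2, across the boundary between groups (dashed line). They were below it in the other libraries. Epx in cko replicate 2 (0.067) and Ms4a2 in cko replicate 1 (-0.032) lay close to the mean.

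The basophil and mast cell proteases differed more within wt than between the group means. Prss34 encodes a serine protease of basophils and immature mast cells, in the tryptase cluster of chromosome 17. It had 60.4 FPKM (1632 reads) in wt replicate 1 and 14.7 FPKM (336 reads) in wt replicate 2, against 20.0 FPKM (455 reads) in cko replicate 1 and 38.9 FPKM (836 reads) in cko replicate 2. Both cko libraries thus lay between the wt libraries, and wt replicate 1 exceeded wt replicate 2 by 4.12 times. The group means were 37.6 ± 32.3 FPKM in wt and 29.4 ± 13.4 FPKM in cko (SD, n = 2), with a log2 fold change of -0.10 (SE 0.67, 95% interval -1.76 to 1.56, limma adjusted p = 0.954). That interval spans changes by over 1 log2 unit either way, so equal levels were not shown. The direction was not stable, at 0.10 with erythroid and hepatocyte markers removed, 0.88 without wt replicate 1 and -1.09 without wt replicate 2.

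Cpa3, the carboxypeptidase A of mast cell and basophil granules, lies on chromosome 3 (20215620 to 20242181, minus strand, GRCm38). It had the same order of libraries as Prss34, with 16.9 and 3.47 FPKM in wt (569 and 99 reads) and 6.01 and 11.2 FPKM in cko (171 and 301 reads). The same libraries were high and low, and both cko libraries again lay between the wt libraries. Its log2 fold change was 0.05 (SE 0.66, 95% interval -1.60 to 1.71, limma adjusted p = 0.978), -0.056 after median-of-ratios scaling, 1.05 without wt replicate 1 and -0.95 without wt replicate 2. The ratio of Prss34 to Cpa3 was 3.32 to 4.23 in the 4 libraries, a span of 1.28 times, while the levels of these genes spanned 4.12 and 4.87 times.

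Mcpt8, a protease gene particular to mouse basophils, lies in the chymase and granzyme cluster of chromosome 14 (56082166 to 56085273, minus strand, GRCm38). It had 24.4 and 9.48 FPKM in wt (541 and 178 reads) and 7.004 and 17.2 FPKM in cko (131 and 303 reads). Here cko replicate 1 rather than wt replicate 2 was the lowest, and the groups overlapped. The log2 fold change was -0.44 (SE 0.54, 95% interval -1.79 to 0.91, limma adjusted p = 0.709), and it was -0.24 with erythroid and hepatocyte markers removed, 0.20 without wt replicate 1 and 0.15 without cko replicate 1. Without wt replicate 2 it was -1.08, and without cko replicate 2 -1.03. Ctsg, the cathepsin G gene of neutrophil granules whose start lies 17.3 kb away, had 81.0 and 63.8 FPKM in wt and 98.5 and 85.6 FPKM in cko, a narrower spread and another order of libraries.

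The spread within wt was large for some of these genes and not for others. The difference between the wt libraries in log2(FPKM + 1) was 2.00 for Cpa3, 1.97 for Prss34, 1.28 for Mcpt8 and 1.21 for Epx, and a difference at least as large was seen in 0.659%, 0.696%, 2.06% and 2.37% of all tested genes. For Prg2 it was 0.79, which 6.33% reached, for Ms4a2 0.70 (8.33%) and for Siglecf 0.49 (17.4%). Of the 10 genes, 7 were highest in wt replicate 1 and 6 were lowest in wt replicate 2, where Fcer1a shared its 0 reads with cko replicate 2. Markers of some other cell types were mostly highest in wt replicate 1 as well, namely 10 of 11 erythroid and 5 of 6 megakaryocyte markers. The latter, of which 4 averaged under 1 FPKM, summed to 25.5 FPKM there against 10.3 to 17.9 in the other libraries. Of the neutrophil markers 3 of 13 were highest there, and of the monocyte and macrophage markers 4 of 12. None of the markers of these lists was at 0 in any library. Their part in the values was not tested, and wt replicate 1 also had the largest read total while wt replicate 2 was the library with Y-linked transcripts.

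**Figure D3:**
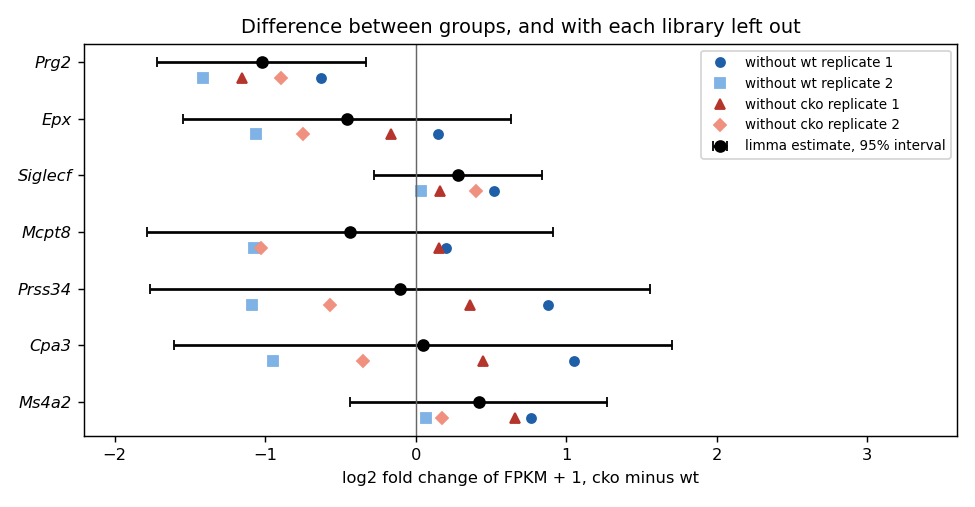
Log2 fold change of FPKM + 1, cko minus wt, for the 7 tested genes (black points, limma estimates with 95% intervals) and the same with each library left out (coloured symbols). Only the interval of Prg2 lay apart from 0, and leaving out wt replicate 1 or wt replicate 2 moved Prss34 from 0.88 to -1.09 and Cpa3 from 1.05 to -0.95.

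Other mast cell and basophil genes showed more than 1 pattern. Of 16 on the list, 12 were analysed, 8 were tested and 0 passed either threshold, with a median log2 fold change of 0.38. An unadjusted p under 0.05 was reached by 2 with higher values in cko, where the share over all tested genes was 11.4%, and by 1 with lower values (4.95%). Hdc, the histamine-forming histidine decarboxylase, which neutrophils and their precursors can also express, had 67.9 and 65.1 FPKM in wt and 103.9 and 193 FPKM in cko (log2 fold change 1.08, SE 0.30, unadjusted p = 0.0121, limma adjusted p = 0.220). Slc18a2, the vesicular amine transporter that loads histamine, had 18.8 and 18.4 FPKM in wt and 24.9 and 29.0 FPKM in cko (log2 fold change 0.51, limma adjusted p = 0.237). For both, as for Ms4a3, the cko libraries lay above the wt libraries (24.5% of all genes), which held for 0 of the 10 genes. Kit, the stem cell factor receptor of mast cells and progenitors, had 4.33 and 3.85 FPKM in wt and 2.19 and 2.87 FPKM in cko (log2 fold change -0.53, limma adjusted p = 0.288).

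The proteases of mature connective tissue mast cells were low, and highest in cko replicate 2. The tryptase Tpsb2 had 3.79 and 1.38 FPKM in wt and 2.27 and 5.80 FPKM in cko (log2 fold change 0.48, limma adjusted p = 0.635). Mcpt4 had 1.46 and 0.805 FPKM in wt and 1.24 and 4.80 FPKM in cko, and the chymase Cma1 4.11 and 2.97 FPKM in wt and 2.83 and 6.84 FPKM in cko. The groups overlapped for each of these. Ms4a3, a membrane gene of granulocyte and basophil precursors that lies 17.1 kb from Ms4a2, had 45.98 and 41.96 FPKM in wt and 51.6 and 51.8 FPKM in cko (log2 fold change 0.23, limma adjusted p = 0.443). Its cko libraries also lay above both wt libraries, by a narrow margin.

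The receptor for IgE is built from an alpha chain that binds IgE (Fcer1a), a beta chain (Ms4a2) and a gamma chain (Fcer1g) that other Fc receptors share. Ms4a2, on chromosome 19 (11615523 to 11623719, minus strand, GRCm38), had 1.66 and 0.642 FPKM in wt (104 and 34 reads) and 1.37 and 2.31 FPKM in cko (72 and 115 reads). Here cko replicate 2 was the highest library, wt replicate 2 the lowest, and the groups overlapped. Its log2 fold change was 0.42 (SE 0.34, 95% interval -0.43 to 1.27, limma adjusted p = 0.562), 0.72 with a pseudocount of 0.1, 0.77 without wt replicate 1 and 0.07 without wt replicate 2. Fcer1a, on chromosome 1 (173221284 to 173227214, minus strand, GRCm38), had 14 reads in wt replicate 1 (0.632 FPKM, 95% Clopper-Pearson interval 0.345 to 1.06) and 4 in cko replicate 1 (0.214 FPKM, 0.0583 to 0.548). It had 0 reads in wt replicate 2 and cko replicate 2, which allows up to 0.160 and 0.170 FPKM at 3 reads. It was therefore detected in 1 library of each group, and the groups overlapped. With no filter on low values its log2 fold change was -0.21 (SE 0.27, limma adjusted p = 0.761). Intervals and limits cover counting error only. Fcer1g had 115.3 and 297 FPKM in wt and 348 and 157 FPKM in cko, and so was above Ms4a2 in every library by far.

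Of 14 genes of signalling from the IgE receptor, 12 were tested and 0 passed either threshold. Their median log2 fold change was 0.39, and 6 had an unadjusted p under 0.05 with higher values in cko, against 11.4% of all tested genes. Both cko libraries lay above both wt libraries for 8 of the 14, and for 24.5% of all genes and 33.6% of tested genes. Gab2, a docking protein of this pathway, had 2.94 and 2.67 FPKM in wt and 5.93 and 6.80 FPKM in cko (log2 fold change 0.95, SE 0.18, unadjusted p = 0.00237, limma adjusted p = 0.199). Lyn, the kinase that phosphorylates the receptor, had 70.0 and 69.3 FPKM in wt and 88.3 and 127.9 FPKM in cko (log2 fold change 0.60, limma adjusted p = 0.259), and Syk stood at 0.48. Inpp5d, the inhibitory phosphatase SHIP-1, stood at -0.02. These proteins also serve other receptors of neutrophils and monocytes, and levels in the bulk libraries are not those of mast cells or basophils alone.

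**Figure D4:**
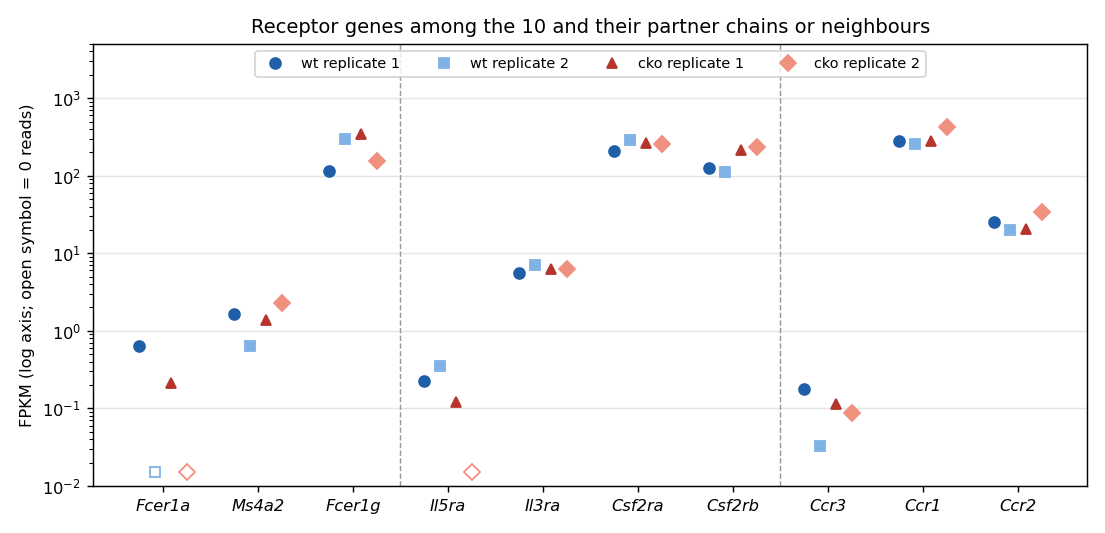
FPKM (log axis) of receptor genes in the 4 libraries, with open symbols for 0 reads: the 3 IgE receptor chains, the receptor chains of interleukin-5, interleukin-3 and GM-CSF, and Ccr3 with the neighbouring chemokine receptors Ccr1 and Ccr2. Fcer1a, Il5ra and Ccr3 stayed below 1 FPKM, while Fcer1g, Csf2ra, Csf2rb and Ccr1 stayed above 100 FPKM in every library.

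Interleukin-5, the growth factor of eosinophils, acts through the alpha chain Il5ra and the common beta chain Csf2rb. Il5ra, on chromosome 6 (106710357 to 106749037, minus strand, GRCm38), had 18 and 24 reads in wt replicates 1 and 2 (0.227 FPKM, 95% Clopper-Pearson interval 0.134 to 0.358, and 0.357 FPKM, 0.229 to 0.531). In cko replicates 1 and 2 it had 8 and 0 reads (0.119 FPKM, interval 0.0515 to 0.235, and a limit of 0.0474 FPKM at 3 reads). It was the other gene of the 10 whose cko libraries both lay below both wt libraries, although the interval of cko replicate 1 overlapped those of both wt libraries. Its mean was under 1 FPKM, so it was not part of the main fit. With no filter on low values its log2 fold change was -0.29 (limma adjusted p = 0.520), and by voom on recovered reads -3.13 (SE 1.80, limma adjusted p = 0.440).

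The beta chain Csf2rb was abundant and had higher values in both cko libraries. Csf2rb had 127 and 112 FPKM in wt and 213 and 238 FPKM in cko (log2 fold change 0.91, SE 0.15, unadjusted p = 0.00105, limma adjusted p = 0.183), and Csf2rb2, the interleukin-3-specific beta chain of mice, stood at 0.62 (limma adjusted p = 0.251). These mouse genes are close copies of each other. Csf2ra, the alpha chain for GM-CSF, had 208 to 289 FPKM and a log2 fold change of 0.08, and Il3ra, that for interleukin-3, 5.60 to 7.06 FPKM and 0.0034. Of 8 analysed genes of this receptor system, 7 were tested and 0 passed either threshold, with a median log2 fold change of 0.22, and 3 (Csf2rb, Csf2rb2 and Jak2) had an unadjusted p under 0.05 with higher values in cko (11.4% of all tested genes). The genes of interleukin-5 and interleukin-3 were not analysed here, and Csf2, which encodes GM-CSF, had 1 read in cko replicate 2 and 0 reads in the other libraries.

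Ccr3, the eotaxin receptor of eosinophils and basophils, had 13 and 2 reads in wt (0.179 and 0.0325 FPKM) and 7 and 5 reads in cko (0.114 and 0.0864 FPKM), on chromosome 9 from 124021972 to 124031689 (plus strand, GRCm38). The wt libraries enclosed the cko libraries, and all 4 intervals overlapped between the groups. With no filter on low values the log2 fold change was -0.0040 (limma adjusted p = 0.988), on a scale that understates the changes of low genes. Ccr1 and Ccr2, whose starts lie 53.3 and 80.0 kb away and which serve neutrophils and monocytes, had 253 to 424 FPKM and 20.0 to 34.0 FPKM. Of the chemokines that bind Ccr3, 3 of 6 were analysed, all were tested and 0 passed either threshold, with a median log2 fold change of 1.18. Ccl7 had 2.30 and 0 FPKM in wt and 2.86 and 19.0 FPKM in cko (log2 fold change 2.27, SE 0.90, limma adjusted p = 0.299). Ccl24, an eotaxin, had 4.03 and 1.31 FPKM in wt and 3.96 and 11.0 FPKM in cko (1.18, SE 0.54, limma adjusted p = 0.347). For both, cko replicate 2 was far above the other libraries. Ccl5 had 1.94 to 3.05 FPKM.

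Among 10 transcription factors of these lineages, 6 were tested and 0 passed either threshold, with a median log2 fold change of 0.29. Xbp1 and Spi1 had an unadjusted p under 0.05 with higher values in cko (11.4% of all tested genes), at log2 fold changes of 0.83 and 0.98. Gata1, which directs eosinophil, mast cell, erythroid and megakaryocyte fate, had 14.5 and 7.496 FPKM in wt and 5.89 and 5.96 FPKM in cko (log2 fold change -0.73, SE 0.30, limma adjusted p = 0.314). Both cko libraries were below both wt libraries, as they were for 9 of the 11 erythroid markers, 12.6% of all genes and 18% of tested genes. Gata2, a factor of basophils, mast cells and progenitors, had 1.06 and 0.541 FPKM in wt and 0.514 and 0.859 FPKM in cko. Its mean was 0.743 FPKM, so it was not tested. It was high in the same libraries as Prss34, Cpa3 and Mcpt8. So were the megakaryocyte marker Pf4 (17.2 and 7.81 FPKM in wt, 6.88 and 14.3 in cko) and the macrophage marker Clec4f (38.5 and 24.0 FPKM in wt, 22.6 and 33.7 in cko). Mitf, a mast cell factor, had 0.182 to 0.575 FPKM. Cebpe, needed for the granules of eosinophils and neutrophils, had 81.5 and 101.2 FPKM in wt and 89.7 and 40.9 FPKM in cko (log2 fold change -0.58, limma adjusted p = 0.466).

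The genes outside the list whose values over the 4 libraries lay closest to those of Prg2, the most abundant of the 10, were Tctex1d2, Bpgm, Cd59a, BC100530 and Stfa1, at Euclidean distances from 0.0988 to 0.180 between centred log2(FPKM + 1) values. Bpgm encodes an enzyme of red cells, with 44.3 and 25.8 FPKM in wt and 16.001 and 14.3 FPKM in cko. Stfa1 and BC100530 belong to the stefin A cluster, with 21374 and 14308.5 FPKM in wt and 8743 and 8029 FPKM in cko for Stfa1. The other 9 genes were not considered in this search, and with 4 libraries such likeness is a description only.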

How the data were processed

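RNA-seq of 4 libraries labelled myeloid cells (2 wt, 2 cko) was analysed. Each library came as its own table of gene-level FPKM values that the authors deposited, with no scaling between libraries. The submitters' processing notes name TopHat2 2.0.12, Bowtie2 2.2.3, HTSeq 0.6.0 and the build mm9, but 92.6% of gene positions equalled GENCODE M21 (GRCm38), 9 of the 10 genes among them (not Prss34, for which only the RefSeq promoter position is given). Library totals were recovered from single-exon genes, of whose values 99.966% to 100% per library were whole multiples of 1 read (tolerance 0.05), and reads from annotated lengths for 91.5% of genes and from fitted lengths, Prss34 included, for others, 99.8% in all. RPKM is the unit the study's methods name.

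Groups were compared with limma 3.58.1 in R 4.3.3 (lmFit, then eBayes with trend) on log2(FPKM + 1). Genes averaging under 1 FPKM were left out. The fit used Benjamini-Hochberg adjustment over all genes tested and no covariate. A fold change on this scale understates that of low genes. The labels do not say that the libraries came from separate animals. Sex-linked transcripts set wt replicate 2 apart from wt replicate 1, but do not separate the cko libraries. The p-values thus measure the spread between these libraries only. The fit was also run on simulated counts with a fixed spread between libraries, which does not show how it performs at the spread of these libraries. The 10 genes and the other lists were chosen with earlier results of these data known. Named genes are the 10, members of those lists, Pdcd1, Lyz2, sex-linked genes, and the 5 genes nearest to the most abundant of the 10; genes within 100 kb were added after values were seen. Promoters were taken from RefSeq (GRCm38.p6), which matched 9 of the 10. Tables and figures were made with Python 3.11.15 and matplotlib 3.10.9.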

Additional observations from a re-analysis of the deposited data

How the results depend on the processing

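Reads limit Fcer1a, Il5ra and Ccr3, which had at most 24 reads in any library, and the spread within wt limits Prss34, Cpa3, Mcpt8 and Epx. Of 96 values of the 7 tested genes under other settings, 82 kept direction and call, 4 of Prg2 passed the second threshold (|log2FC| above 1, unadjusted p under 0.01) and 10 changed sign. The causes were not tested.

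No gene of the 10 passed the adjusted threshold under any alternative, and of all genes 2 did by voom on recovered reads. By the second threshold 1 of the 10 (Prg2) passed after median-of-ratios scaling, by voom and with the replicate number as a block, where 258 of all genes passed, 247 without it. The numbers are not stated to pair libraries, and the deviations of same-numbered libraries correlated at -0.163 across genes. With the numbers crossed, a block added after the values were seen, 1 gene passed the adjusted and 363 the second threshold, and of the 10 it was 0 and 1. Without that block 203 genes were higher and 44 lower in cko (82.2% higher), with median-of-ratios scaling 142 and 72 (66.4%), and with erythroid and hepatocyte markers removed 351 and 17 (95.4%). The median of all genes moved from 0.09 to -0.0078 and 0.27 under these scalings. A minimum mean of 5 FPKM left 126 genes, with fewer genes tested.

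With erythroid and hepatocyte markers removed Prss34 was at 0.10, and Siglecf became the 1 gene with both cko libraries above both wt libraries. Cpa3 was at -0.056 with median-of-ratios scaling and at -0.24 as the ratio of mean FPKM, which was added after the values were seen. Leaving out 1 library at a time gave 136 to 472 genes past the second threshold and 0 to 1 of the 10. The median of the tested genes ranged from -1.06 to 0.52, lowest without wt replicate 2 and highest without wt replicate 1. Of the 10, those with every cko library below every wt library numbered 2 to 8 (8 without wt replicate 2, 4 without cko replicate 2) and those above 0 to 5 (5 without wt replicate 1). A library left alone in its group was taken to vary like the other group. Log2 fold changes ranged from -1.06 to 0.15 for Epx, -1.08 to 0.20 for Mcpt8, -1.09 to 0.88 for Prss34 and -0.95 to 1.05 for Cpa3.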
